A study of Mus musculus with 31 samples.

Results

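Untreated MC-38 tumors were compared with untreated RM-9 tumors, 4 mice of each, by mRNA sequencing. These 8 libraries were the control groups of a series of 31, chosen by their labels alone, and the other 23 came from tumors that had received RT. RM-9 is a mouse prostate cancer line and MC-38 a mouse colon cancer line, and both were labelled adenocarcinoma. The 8 tumors grew from injected cells under the skin of the right hind leg in male, wild-type C57BL/6J mice bought at an age of a few weeks, were not irradiated and carried the 3 h time point of the RT groups in their labels. Both lines are therefore transplants outside their organ of origin, and each control group held 1 library per mouse.

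RM-9 was derived from prostate progenitor tissue into which activated ras and myc oncogenes had been introduced, and MC-38 from a colon tumor induced by a chemical carcinogen. Ras proteins switch on the RAF-MEK-ERK kinase cascade, and Myc is a transcription factor that drives growth genes. Cells also watch for DNA in the cytosol. The enzyme cGAS binds it and makes the messenger cGAMP, which activates STING, then the kinase TBK1 and the factor IRF3, and so the interferon-β gene. AIM2, a member of the PYHIN family, instead assembles an inflammasome with ASC and caspase-1. Interferon acts back on cells through its receptors and raises a large set of interferon-stimulated genes, antigen presentation by MHC class I among them.

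The unit throughout was TPM, a length-corrected share of each library's transcripts, rescaled after the mitochondrially encoded rows had been removed. These rows held 47.8 to 50.5% of TPM in RM-9 and 25.7 to 40.6% in MC-38 libraries, a mean difference of -17.9 percentage points (exact permutation p = 0.0286, two-sided, the smallest that 70 assignments can give). Most of this total came from 1 gene, mt-Nd4l. Its part ranged from 15.8 to 29.6% among the MC-38 mice and from 36.2 to 39.5% among the RM-9 mice. The difference therefore cannot be read as one of mitochondrial transcripts in general, and the other rows were not tested apart from it. The depth was 23.01 to 25.1 M reads in RM-9 and 21.9 to 24.1 M in MC-38. Correlations of log2 values between libraries were 0.973 to 0.985 within RM-9, 0.923 to 0.985 within MC-38 and 0.839 to 0.877 between the models. MC-38 mouse 1 stood apart with skeletal muscle genes and with the highest mitochondrial share of its group, 40.6%. Some results are therefore also given without it, and all others include it. List counts not given both ways could move too. Without it, 7 instead of 9 interferon receptor and signalling genes and 7 instead of 5 mismatch repair and polymerase genes were higher in MC-38. The names of the RM-9 libraries carry a suffix that those of MC-38 lack, and library numbers start anew in each model, so tumor model and library run cannot be told apart. In bulk tumors, more cells of a type and more RNA per cell cannot be told apart either, nor can tumor cells and host cells.

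Differences were fitted with limma on log2(TPM + 0.5) and are given as MC-38 minus RM-9, so that a negative value means higher in RM-9. A gene was called at a Benjamini-Hochberg adjusted p under 0.05 over the 16146 genes with a mean of at least 0.5 TPM. Of these, 9686 were called, 6522 higher and 3164 lower in MC-38, which is 60.0% of all genes tested, 40.4% and 19.6%. At least a 4-fold difference was seen in 1368 called genes (8.47%), 878 higher (5.44%) and 490 lower (3.03%) in MC-38. The median gene differed by 0.25 on the log2 scale, and the share of called genes that were higher in MC-38 depended on the scaling. It was 67.3% here, 51.2% after median-ratio scaling, which centres the typical gene at 0.02, and 86.0% in TPM as deposited, where the median gene was at 0.62 and 68.5% of genes were called, 58.9% higher and 9.60% lower. Gene lists below are therefore set against a median of 0.25, and the counts of their called members against 40.4% and 19.6%, or 30.8% and 29.3% under median-ratio scaling.

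Keratins of simple epithelia were among the largest differences toward RM-9. Krt8, which encodes keratin 8 (ENSMUSG00000049382, chromosome 15, 101996711 to 102004342 in build GRCm38), was at 1861, 1799, 1625 and 1877 TPM in RM-9 mice 1 to 4 and 0.3396, 0.216, 0 and 0.2097 TPM in MC-38 mice 1 to 4. Its partner Krt18 was at 510.1 to 657 TPM in RM-9 and 0 to 0.907 TPM in MC-38, and Krt19 at 194 to 208 and 0 to 0.2001 TPM. The log2 differences were -11.36 (SE 0.15), -9.63 (SE 0.31) and -8.53 (SE 0.14), with limma adjusted p of 7.89e-10, 5.25e-08 and 1.28e-09. All RM-9 mice lay above all MC-38 mice in the 3 genes, and MC-38 tumors held nearly no mRNA of them. Of all genes tested, 54.1% did not overlap between the groups in either direction. Other epithelial genes were low in both models. Epcam, an adhesion molecule of epithelial cells, was at 3.87, 1.96, 2.07 and 3.08 TPM in RM-9 and 0, 0.139, 0 and 0.174 TPM in MC-38 (log2 difference -2.46, limma adjusted p = 2.02e-05). Cdh1, which encodes E-cadherin, was at 0.848 to 1.26 TPM in RM-9 and 0.495 to 1.17 TPM in MC-38 and was not called. The epithelial transcription factor Elf3 went the other way, with 0 to 0.611 TPM in RM-9 and 2.85 to 4.83 TPM in MC-38. Of the 16 epithelial genes, 9 were tested, of which 1 was higher and 7 were lower in MC-38 with a median log2 difference of -2.19, and 7 were under the filter of 0.5 TPM.

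The markers that define the labelled organs were absent or low. Of 18 intestinal genes, 13 did not reach 0.5 TPM and 7 were at 0 in all 8 libraries, among them Cdx1, Slc26a3 and Fabp2. Cdx2, the transcription factor that specifies intestinal epithelium (ENSMUSG00000029646, chromosome 5, 147300805 to 147307270), was listed at 0 in all 4 MC-38 mice. It was at 12.7, 9.47, 12.2 and 13.4 TPM in RM-9 mice 1 to 4. Krt20, a keratin of the intestinal lining, was likewise at 14.3, 12.1, 14.3 and 4.14 TPM in RM-9 and 0, 0.475, 0 and 0 TPM in MC-38 (log2 difference -4.17, SE 0.40, limma adjusted p = 2.34e-05). Cdx2 and Krt20 were the 2 called genes among 5 intestinal genes tested (median -0.76), and Lgals4 was not called, at 0.2399 to 3.47 TPM in RM-9 and 0.248 to 0.991 TPM in MC-38. The colon label of MC-38 was thus not borne out by these 18 genes. Hoxb13, which is also a gene of the hindgut and was higher in MC-38, is not among them and is given below.

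Of 18 prostate genes, 13 were under the filter and 8 at 0 throughout, including Pbsn, the probasin gene. Hoxb13, a homeobox gene of prostate and hindgut, was at 0, 0, 0.0988 and 0 TPM in RM-9 and 2.22, 2.68, 3.11 and 3.71 TPM in MC-38, higher in MC-38 (log2 difference 2.69, SE 0.18, limma adjusted p = 2.94e-06). Sox9, a progenitor transcription factor, was at 26.2 to 53.2 TPM in RM-9 and 14.5 to 22.2 TPM in MC-38 (log2 difference -0.88). Of the 5 prostate genes tested 2 were higher and 2 lower in MC-38, with a median of 0.15 that turned to -0.10 under median-ratio scaling. The prostate label of RM-9 was not borne out by its defining secretory genes either.

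Homeobox genes set positional identity along the body axis, and 31 of 39 passed the filter. Of these, 18 were higher and 5 lower in MC-38, with a median log2 difference of 1.16. In the D cluster, Hoxd11 and Hoxd12 were under the filter in both models, whereas Hoxd9, Hoxd10 and Hoxd13 were higher in MC-38. Hoxd13 was at 0.129, 0.275, 0.0581 and 0.122 TPM in RM-9 mice 1 to 4 and 11.2, 17.3, 19.1 and 17.99 TPM in MC-38 mice 1 to 4 (log2 difference 4.69, SE 0.20, limma adjusted p = 1.91e-07). Hoxd10 was at 0 to 0.247 TPM in RM-9 and 13.2 to 18.7 TPM in MC-38, and Hoxd9 at 1.08 to 1.52 and 9.66 to 13.1 TPM. Hoxa7 was at 3.23 to 3.96 TPM in RM-9 and 36.8 to 48.6 TPM in MC-38 (log2 difference 3.39). In each of these 4 genes the models did not overlap, as was so in 54.1% of all genes tested.

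Mesenchymal genes were compared next. Vim, which encodes the intermediate filament vimentin, was at 3541, 3561, 3571 and 3443 TPM in RM-9 and 1455, 1683, 1572 and 1863 TPM in MC-38, so RM-9 tumors held Vim mRNA together with Krt8, Krt18 and Krt19 mRNA and MC-38 with nearly none of it (log2 difference -1.11, SE 0.08, limma adjusted p = 3.43e-06). Cdh2, the N-cadherin gene, was at 19.6 to 24.6 TPM in RM-9 and 4.77 to 7.31 TPM in MC-38 (log2 difference -1.72), and Fn1, which encodes fibronectin, at 526 to 869 and 141 to 232 TPM (log2 difference -1.80). Twist2, a mesenchymal transcription factor, differed by -1.06. Of 12 mesenchymal genes, 2 were higher and 7 lower in MC-38 of 12 tested, with a median log2 difference of -0.98.

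Xist, the RNA that coats the inactive X chromosome of female cells (ENSMUSG00000086503, chromosome X, 103460375 to 103483217), was at 27.04, 69.2, 136 and 124 TPM in RM-9 mice 1 to 4 and 0.01096, 0.0377, 1.21 and 0.0154 TPM in MC-38 mice 1 to 4 (log2 difference -6.75, SE 0.56, limma adjusted p = 9.78e-06). All RM-9 tumors held it, with RM-9 mouse 1 lowest, although the hosts were male. Genes of the Y chromosome were detected in both models, but reads of tumor cells and of cells of the male hosts cannot be told apart. Ddx3y was at 2.34 to 2.98 TPM in RM-9 and 2.42 to 5.73 TPM in MC-38, and Uty at 0.367 to 0.661 and 0.657 to 1.299 TPM, and neither was called. Eif2s3y was at 3.59 to 5.44 TPM in RM-9 and 5.64 to 10.9 TPM in MC-38 (log2 difference 0.71, limma adjusted p = 0.0166), a call lost under median-ratio scaling (adjusted p = 0.115). Kdm5d was under the filter.

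**Figure D1:**
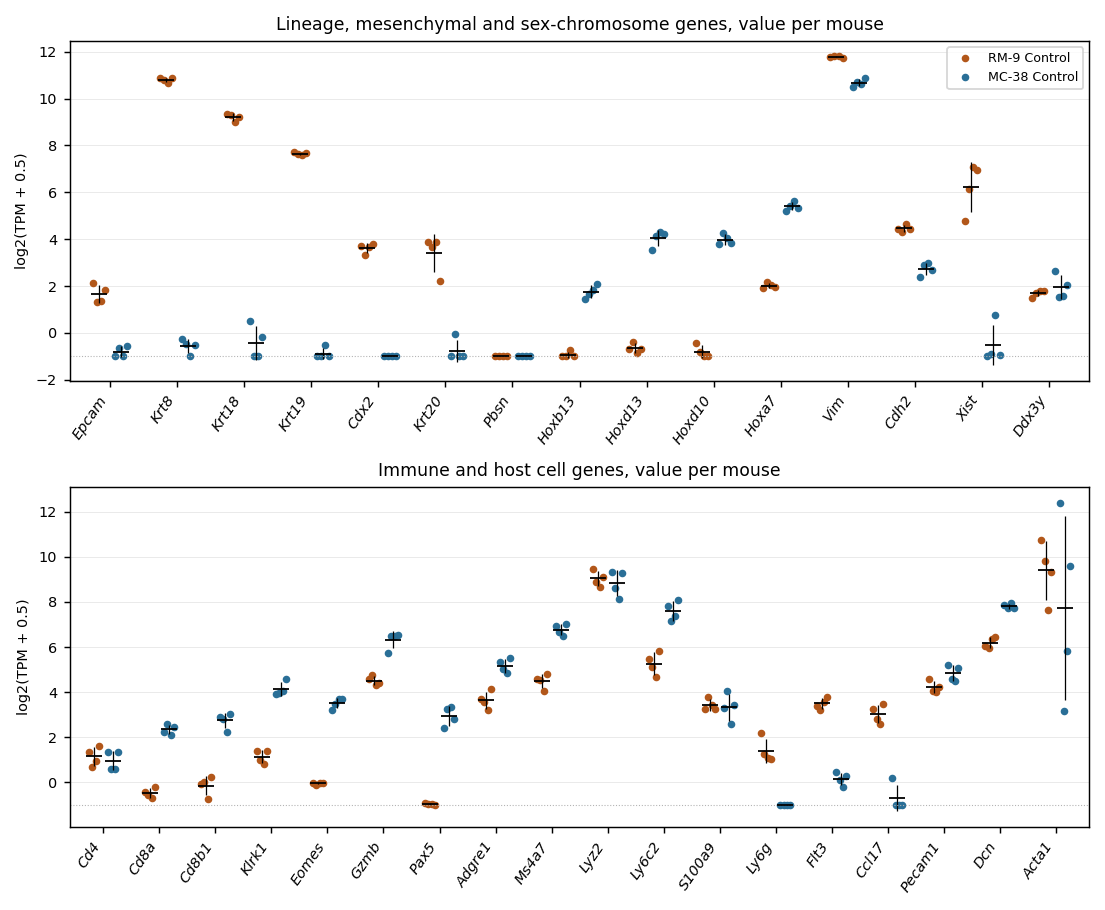
Values of lineage genes (top) and immune and host cell genes (bottom) as log2(TPM + 0.5) in each of 4 RM-9 Control mice (brown) and 4 MC-38 Control mice (blue), with the mean (horizontal tick) and SD (vertical line) of each group; the dotted line marks 0 TPM. Keratin genes and Cdx2 lie near 0 TPM in MC-38 mice, and Acta1 spreads more within each group than between them.

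Ras genes were next compared, since the oncogenes differ between the lines by origin. Hras (ENSMUSG00000025499, chromosome 7, 141189105 to 141194005) was at 717, 642, 1353 and 789 TPM in RM-9 mice 1 to 4 and 82.9, 75.8, 73.4 and 77.3 TPM in MC-38 mice 1 to 4 (log2 difference -3.43, SE 0.20, limma adjusted p = 1.25e-06). The mean in RM-9 was 11.3 times that in MC-38, and RM-9 mouse 3 was highest. Nras, another Ras gene, was at 54.97 to 64.4 TPM in RM-9 and 61.1 to 71.1 TPM in MC-38 and was not called. The difference of Hras was accompanied by an even larger one in Rap1b, a Ras-related GTPase of cell adhesion, at 2579.8, 2879, 3684 and 3083 TPM in RM-9 mice 1 to 4 and 189, 207, 202 and 212 TPM in MC-38 mice 1 to 4 (log2 difference -3.90, SE 0.10, limma adjusted p = 2.1e-08). Rala, an effector GTPase of Ras signalling, differed by -1.20, Mras by -1.90, Rap2a by -0.83 and Rap2b by -0.72. Rras, Rras2 and Rit1 were called higher in MC-38 by 0.35, 0.40 and 0.29, and all 3 calls were lost under median-ratio scaling. Ralb, Rap1a and Rap2c were not called, with differences of 0.19, 0.04 and 0.15. Of the 14 Ras family genes 3 were higher and 7 lower in MC-38, or 0 higher and 8 lower under median-ratio scaling. Reads from an introduced ras or myc copy, where one is expressed, cannot be told apart from those of the mouse gene in these tables.

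All 3 Myc genes with a growth-promoting role were higher in RM-9. Myc (ENSMUSG00000022346, chromosome 15, 61985341 to 61990374) was at 534, 450.4, 671 and 512 TPM in RM-9 mice 1 to 4 and 154, 259, 234 and 149.5 TPM in MC-38 mice 1 to 4 (log2 difference -1.47, SE 0.20, limma adjusted p = 0.000191). Mycn, better known from the nervous system, was at 49.1, 51.9, 90.03 and 56.9 TPM in RM-9 and 0.0797, 0, 0 and 0 TPM in MC-38 (log2 difference -6.87, limma adjusted p = 3.13e-08). Mycl was at 7.81, 7.68, 12.7 and 8.02 TPM in RM-9 and 0.452, 0.102, 0 and 0.208 TPM in MC-38 (log2 difference -3.80, limma adjusted p = 2.03e-06). In all 3 the models did not overlap over the 8 mice, as was so in 54.1% of all genes tested. Among the antagonists of Myc, Mxd4, Mxi1 and Mnt were higher in RM-9, with differences of -1.68, -1.74 and -0.59, and Mxd3 was higher in MC-38 by 1.53. The shared partner Max was at 83.9 to 91.95 TPM in RM-9 and 64.6 to 83.9 TPM in MC-38 and was not called, nor were Mxd1 (0.26), Mga (0.14) and Mlxip (0.39). Mlx differed by 0.82, higher in MC-38.

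Genes downstream of ERK and of Myc were listed separately. Of 19 genes that ERK signalling induces, including its own feedback inhibitors, 0 were higher and 17 lower in MC-38 of 19 tested, with a median log2 difference of -1.72. In TPM as deposited 1 was higher and 14 lower (median -1.29), and under median-ratio scaling 0 and 18 (median -1.97). Dusp6, the phosphatase that switches ERK off, was at 179.5, 182, 211 and 187 TPM in RM-9 mice 1 to 4 and 43.9, 47.8, 52.4 and 35.5 TPM in MC-38 mice 1 to 4 (log2 difference -2.08, SE 0.12, limma adjusted p = 1.01e-06). The feedback inhibitors Spry1, Spry4 and Spred1 were at 19.1 to 23.8, 24.1 to 37.5 and 59.03 to 74.8 TPM in RM-9 and 1.98 to 3.93, 2.68 to 4.73 and 15.2 to 21.7 TPM in MC-38. Areg, a ligand of the EGF receptor singled out after its values were seen, was at 139.7, 198, 201 and 119 TPM in RM-9 mice 1 to 4 and 2.96, 12.6, 6.41 and 2.93 TPM in MC-38 mice 1 to 4 (log2 difference -4.81, SE 0.41, limma adjusted p = 1.14e-05). Spred2 and Ier3 were the 2 genes not called. Of 18 ribosome-biogenesis and nucleolar genes that Myc is known to activate, 8 were higher and 2 lower in MC-38 of 18 tested, with a median log2 difference of 0.05. Under median-ratio scaling this became 2 higher and 9 lower, with a median of -0.20, so the direction of this group depended on the scaling. Npm1, a nucleolar chaperone, was at 1816 to 2065 TPM in RM-9 and 2988 to 3635 TPM in MC-38, higher in MC-38 under both scalings (log2 difference 0.71). Nop58 differed by 0.93, Odc1 by 0.39 and Bop1 by -0.53, and the call of Odc1 was lost under median-ratio scaling.

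Receptors of growth factors differed gene by gene. Erbb3 was at 0.204 to 0.531 TPM in RM-9 and 4.92 to 7.07 TPM in MC-38 (log2 difference 2.97, SE 0.19, limma adjusted p = 1.93e-06), and its partner Erbb2 at 5.52 to 6.96 and 15.6 to 22.1 TPM (log2 difference 1.53). Fgfr3 was higher in MC-38 by 2.15, and Ddr1, a collagen receptor, higher in RM-9 (log2 difference -1.16). In all, 4 receptors were higher and 4 lower in MC-38 of 12 tested, with a median of -0.26. Wnt target genes were few above the filter, 6 of 12, with 1 higher and 2 lower in MC-38 (median -0.28). Apcdd1, a Wnt inhibitor that Wnt itself induces, was at 25.95 to 40.6 TPM in RM-9 and 5.296 to 10.5 TPM in MC-38 (log2 difference -1.89), and Tcf7 at 5.84 to 7.799 and 11.5 to 15.6 TPM (log2 difference 0.96). Notum, which switches Wnt ligands off, differed by -1.92.

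**Figure D2:**
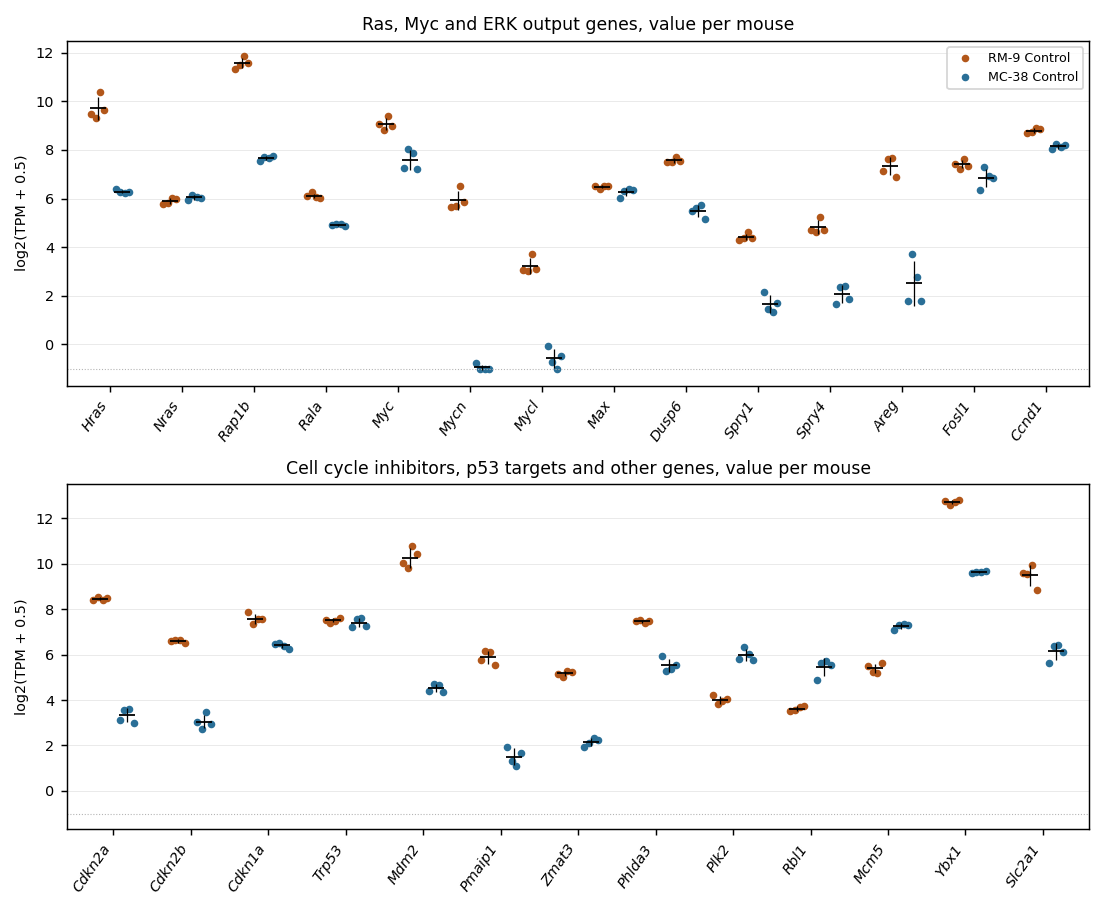
Values of Ras, Myc and ERK output genes (top) and of cell cycle inhibitors, p53 targets and other genes (bottom) as log2(TPM + 0.5) in each of 4 RM-9 Control mice (brown) and 4 MC-38 Control mice (blue), with mean and SD. Hras, Rap1b, Mycn, Areg, Cdkn2a and Mdm2 are higher in all 4 RM-9 mice, and Trp53 overlaps between the models.

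Inhibitors of the cell cycle gave some of the widest gaps. Cdkn2a, which encodes both p16-INK4a and p19-ARF (ENSMUSG00000044303, chromosome 4, 89274471 to 89294653), was at 342, 372, 336 and 364 TPM in RM-9 mice 1 to 4 and 8.26, 11.3, 11.8 and 7.46 TPM in MC-38 mice 1 to 4 (log2 difference -5.14, SE 0.14, limma adjusted p = 2.6e-08). Its neighbour Cdkn2b, the p15-INK4b gene, was at 97.1, 100.01, 99.03 and 89.8 TPM in RM-9 and 7.69, 6.199, 10.5 and 7.31 TPM in MC-38 (log2 difference -3.55, limma adjusted p = 1.42e-07). Mtap, which lies beside them and was singled out after its values were seen, went the other way, with 59.6 to 71.001 TPM in RM-9 and 232 to 276 TPM in MC-38. Of the 11 other tested genes within 1 Mb of Cdkn2a, 6 were higher and 2 lower in MC-38, against 40.4% and 19.6% of all genes tested. Rbl1, a relative of the retinoblastoma gene, was higher in MC-38 by 1.82 and Cdkn1a, which encodes p21, higher in RM-9 (log2 difference -1.17). Among 18 cell cycle drivers and inhibitors, 7 were higher and 8 lower in MC-38 (median -0.15).

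Genes under the control of p53 were mostly higher in RM-9. Of 20 such genes, 2 were higher and 16 lower in MC-38 of 20 tested, with a median log2 difference of -1.01. In TPM as deposited 3 were higher and 11 lower (median -0.58), and under median-ratio scaling 1 and 16 (median -1.26). Trp53 itself, which encodes p53, was at 168 to 195 TPM in RM-9 and 147 to 193 TPM in MC-38 and was not called. Under median-ratio scaling Trp53 was called (adjusted p = 0.00207, lower in MC-38). Mdm2, the ubiquitin ligase that degrades p53 (ENSMUSG00000020184, chromosome 10, 117688888 to 117710758), was at 1035, 889, 1777 and 1381 TPM in RM-9 mice 1 to 4 and 20.5, 25.5, 24.7 and 19.8 TPM in MC-38 mice 1 to 4 (log2 difference -5.74, SE 0.20, limma adjusted p = 7.79e-08). Pmaip1, which encodes the pro-apoptotic protein NOXA, was at 53.6, 70.8, 67.9 and 45.5 TPM in RM-9 and 3.36, 1.99, 1.64 and 2.66 TPM in MC-38 (log2 difference -4.38). Zmat3 was at 31.6 to 38.5 TPM in RM-9 and 3.31 to 4.499 TPM in MC-38 (log2 difference -3.01), and Phlda3, a brake on AKT, at 166 to 181 and 38.1 to 60.8 TPM (log2 difference -1.93). The exceptions were Plk2 and Fas, singled out after their values were seen, which were higher in MC-38 by 1.96 and 0.87, and the call of Fas was lost under median-ratio scaling (adjusted p = 0.0923).

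Genes beside Mdm2 on chromosome 10 were higher in RM-9 as well. Rap1b, described above, lies there, and Cpm, Slc35e3, Nup107 and Mdm1 are its neighbours. They were at 8.41 to 17.2, 171 to 281, 624 to 899.8 and 82.3 to 124 TPM in RM-9 and 0.357 to 0.577, 4.27 to 6.86, 34.1 to 41.7 and 6.77 to 9.28 TPM in MC-38. Of the 18 other tested genes within 1 Mb of Mdm2, 10 were lower and 5 higher in MC-38, 5 of the lower ones at least 4-fold. A second such run lay on chromosome 4 around Ybx1, which encodes a cold-shock RNA-binding protein (ENSMUSG00000028639, chromosome 4, 119277981 to 119294604). Ybx1 was at 6942, 6223, 6801 and 7078 TPM in RM-9 mice 1 to 4 and 775, 798, 802 and 831 TPM in MC-38 mice 1 to 4 (log2 difference -3.07, SE 0.06, limma adjusted p = 4.28e-09). Ppih and Ccdc30 beside it differed by -2.38 and -2.58, and Slc2a1, the gene of the glucose transporter GLUT1, was at 778, 748, 985 and 464 TPM in RM-9 mice 1 to 4 and 49.6, 83.5, 85.5 and 68.7 TPM in MC-38 mice 1 to 4 (log2 difference -3.34, SE 0.24, limma adjusted p = 4.06e-06). Of 22 other tested genes within 1 Mb of Ybx1, 11 were lower and 7 higher in MC-38, 6 of the lower ones at least 4-fold. Both runs were chosen after their values were seen. Around Hras, a window fixed beforehand, 44 other genes were tested, and 15 were higher and 11 lower in MC-38. Of these, 3 were at least 4-fold higher and 0 at least 4-fold lower. Over all genes tested the shares were 40.4% higher and 19.6% lower, with 5.44% and 3.03% at least 4-fold. Gene copy number was not measured.

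**Figure D3:**
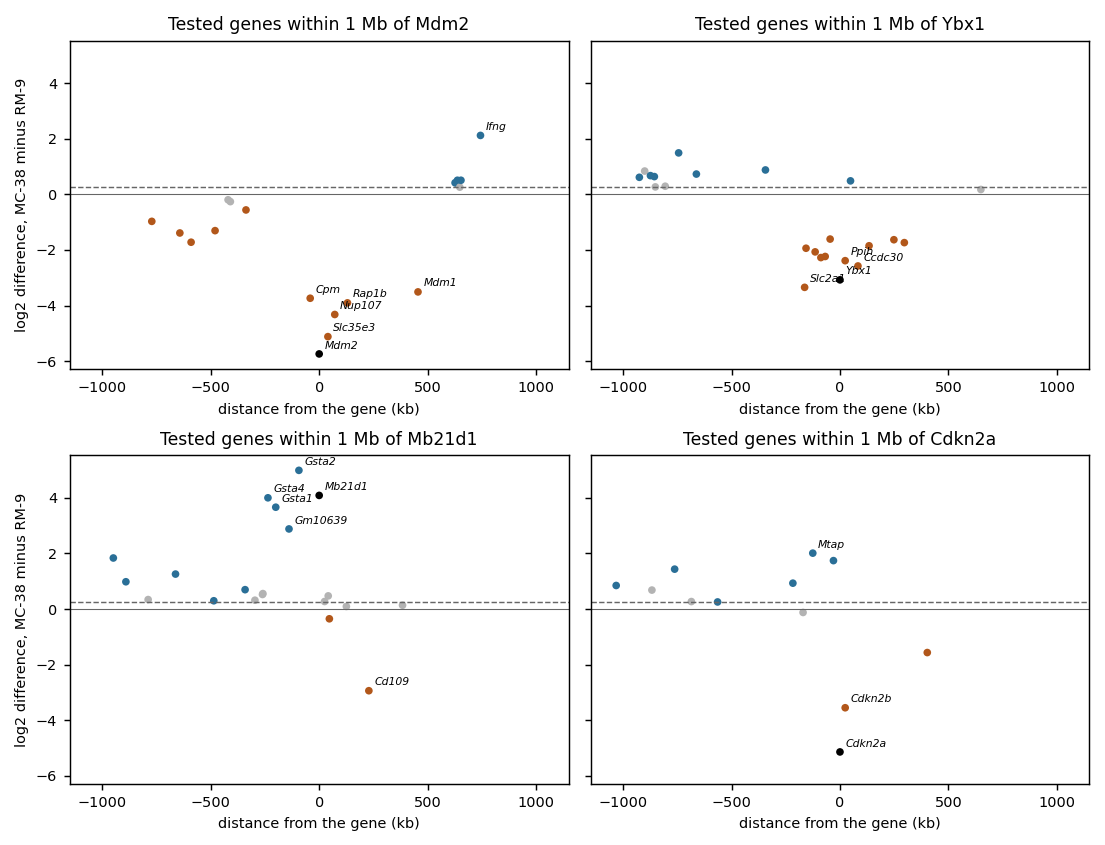
Log2 difference (MC-38 minus RM-9) of the tested genes within 1 Mb of Mdm2, Ybx1, Mb21d1 and Cdkn2a, against their distance from that gene in kb. The named gene is black, called genes are blue (higher in MC-38) or brown (lower), grey genes were not called, and the dashed line is the median of all genes, 0.25. Brown genes sit beside each other around Mdm2 and Ybx1, and the Gsta genes lie beside Mb21d1.

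Tumor suppressor genes outside these pathways went both ways, with 5 higher and 3 lower in MC-38 of 14 tested (median 0.09, or -0.15 under median-ratio scaling). Brca1, Brca2 and Wwox were higher in MC-38 by 1.35, 1.71 and 1.53. Proliferation genes were higher in MC-38 on balance. Of 22 tested, 18 were higher and 0 lower (median 0.58), and 13 and 0 under median-ratio scaling. Mcm5, a subunit of the replicative helicase, was at 35.96 to 49.3 TPM in RM-9 and 133 to 164 TPM in MC-38 (log2 difference 1.87, SE 0.12, limma adjusted p = 1.82e-06). Top2a, Aurkb and Mcm2 differed by 1.08, 1.18 and 1.15. In the list of mismatch repair and replicative polymerase genes 5 were higher and 1 lower of 10 (median 0.54). Exo1, Pms1 and Pms2 were higher in MC-38 by 1.53, 1.59 and 1.42 and Mlh3 was lower by a log2 difference of -0.93.

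The sensor of cytosolic DNA was among the genes that differed at baseline. Mb21d1, the name in these tables for the gene of cGAS (ENSMUSG00000032344, chromosome 9, 78430526 to 78443237), was at 0.595, 0.8997, 0.593 and 1.05 TPM in RM-9 mice 1 to 4 and 16.4, 21.7, 25.4 and 21.8 TPM in MC-38 mice 1 to 4 (log2 difference 4.09, SE 0.18, limma adjusted p = 2.57e-07). The mean in MC-38 was 27.2 times that in RM-9, where the gene was close to the filter. Tmem173, the gene of STING (ENSMUSG00000024349, chromosome 18, 35733678 to 35740554), had the opposite direction, with 98.7, 85.7, 78.4 and 95.6 TPM in RM-9 mice 1 to 4 and 52.3, 48.4, 46.3 and 61.4 TPM in MC-38 mice 1 to 4 (log2 difference -0.78, SE 0.11, limma adjusted p = 0.000273). RM-9 control tumors thus held less cGAS mRNA and more STING mRNA than MC-38 control tumors. The groups did not overlap in either gene, as was so in 54.1% of all genes tested. Over all libraries, irradiated ones included, Tmem173 did overlap. The gene cluster of glutathione S-transferases beside Mb21d1 was also higher in MC-38. Gsta2 was listed at 0 in all RM-9 mice and at 6.52 to 21.03 TPM in MC-38, and Gsta4 was at 0.378 to 2.19 and 15.8 to 25.6 TPM. Both were singled out after their values were seen, and on the far side Eef1a1 and Cd109 were lower in MC-38, with differences of -0.35 and -2.94.

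Downstream of STING, the kinase gene Tbk1 was at 16.2 to 18.95 TPM in RM-9 and 21.3 to 30.9 TPM in MC-38 (log2 difference 0.58, limma adjusted p = 0.00422). Irf3, the factor that TBK1 activates, was at 35.4, 41.8, 42.3 and 41.1 TPM in RM-9 and 28.8, 41.6, 51.2 and 40.2 TPM in MC-38 and was not called (log2 difference -0.01). Irf7, its interferon-induced relative, was at 54.5, 60.4, 42.1 and 74.2 TPM in RM-9 mice 1 to 4 and 272, 242, 273 and 320.1 TPM in MC-38 mice 1 to 4 (log2 difference 2.27, SE 0.16, limma adjusted p = 3.77e-06). Ifnb1, the interferon-β gene, was at 0, 0.0909, 0 and 0.09004 TPM in RM-9 and 1.12, 0.854, 1.37 and 0.643 TPM in MC-38 (log2 difference 1.44, SE 0.20, limma adjusted p = 0.000234). It was low in both models and did not overlap between them, like 54.1% of all genes tested. Samhd1, a nuclease that lowers DNA precursors, and Ifi35 were higher in MC-38 by 1.77 and 2.39, Nfkb1 by 0.51, and Zdhhc1 was lower, with a difference of -1.17. Ikbke (0.37), Rela (-0.19), Trim56 (0.27) and Enpp1, whose product degrades cGAMP (0.43), were not called. Trex1, the nuclease that clears cytosolic DNA, was at 33.02, 19.3, 13.3 and 12.3 TPM in RM-9 mice 1 to 4 and 67.03, 19.1, 5.43 and 43.9 TPM in MC-38 mice 1 to 4 and was not called. It overlaps another gene model, so its values are uncertain. In sum 7 of the 15 genes were higher and 2 lower in MC-38 (median 0.43), or 5 higher and 3 lower under median-ratio scaling, where Nfkb1 was not called, Rela was called lower and Ifnb1 fell under the filter. Ifnb1 fell under it without MC-38 mouse 1 as well. Of all genes tested, 40.4% were higher and 19.6% lower, or 30.8% and 29.3% under median-ratio scaling. The counts of this list were not far from those shares.

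The AIM2 inflammasome list was followed from sensor to cytokine, and it also holds genes of other inflammasomes, such as Nlrp3, Nlrc4, Nlrp1b and Casp4. Aim2 (ENSMUSG00000037860, chromosome 1, 173350879 to 173466040) was at 28.4, 52.4, 59.9 and 56.4 TPM in RM-9 mice 1 to 4 and 27.8, 47.02, 44.3 and 33.2 TPM in MC-38 mice 1 to 4 and was not called (log2 difference -0.34, limma adjusted p = 0.273). Casp1, the protease that matures interleukin-1β, was at 9.11, 9.798, 5.59 and 8.68 TPM in RM-9 mice 1 to 4 and 58.2, 61.3, 72.8 and 74.8 TPM in MC-38 mice 1 to 4 (log2 difference 2.96, SE 0.17, limma adjusted p = 1.16e-06). Casp4, which senses bacterial lipopolysaccharide, was at 8.73 to 12.05 TPM in RM-9 and 54.5 to 91.8 TPM in MC-38 (log2 difference 2.80), and Pycard, the gene of ASC, at 6.56 to 9.79 and 13.1 to 29.2 TPM (log2 difference 1.25). Gsdmd, the pore former, Il1rn, which encodes the interleukin-1 receptor antagonist, and Nlrp1b were higher in MC-38 by 0.79, 0.81 and 0.64. The cytokine genes came next. Il1b was at 24.3 to 57.1 TPM in RM-9 and 21.4 to 38.5 TPM in MC-38 and Il18 at 3.58 to 6.92 and 4.58 to 11.05 TPM, neither called, and Il1a was lower in MC-38 (log2 difference -1.02). Nlrp3 (0.40), Nlrc4 (0.44) and Dfna5 (-0.40) were not called. Of 13 genes 6 were higher and 1 lower in MC-38 (median 0.44), not far from the 40.4% and 19.6% of all genes tested.

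The PYHIN family was higher in MC-38 apart from Aim2. Of 12 tested, 11 were higher and 0 lower, and the median was 2.30. Ifi204, which can bind DNA and act with STING, was at 54.9, 63.6, 43.9 and 52.2 TPM in RM-9 mice 1 to 4 and 145, 174, 197 and 201 TPM in MC-38 mice 1 to 4 (log2 difference 1.73, SE 0.14, limma adjusted p = 6.82e-06). Pydc4 was at 2.11 to 4.22 TPM in RM-9 and 25.95 to 36.9 TPM in MC-38 (log2 difference 3.29), Gm4955 at 4.13 to 8.26 and 51.4 to 80.1 TPM (log2 difference 3.28). Mnda, Mndal, Ifi203, Ifi205, AI607873, Pydc3, Pyhin1 and BC094916 differed by 2.06, 2.12, 2.53, 2.31, 2.07, 2.82, 2.29 and 2.40. Ifi202b was under the filter, with at most 0.378 TPM in any of the 8 libraries. These genes form 1 cluster of paralogs on chromosome 1, and the more similar ones can share reads.

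Sensors of RNA and of endosomal nucleic acid were mostly higher in MC-38 too. In this list 12 were higher and 1 lower in MC-38 of 15 tested, with a median log2 difference of 1.95. Zbp1, which binds Z-form nucleic acid, was at 19.05 to 31.04 TPM in RM-9 and 300.2 to 423 TPM in MC-38 (log2 difference 3.82, SE 0.16, limma adjusted p = 1.85e-07). Ifih1, the gene of MDA5, Tlr3 and Dhx58 were higher by 3.60, 3.50 and 2.84. Interferon-stimulated genes were higher in MC-38 without exception, 24 of 24 tested, with 0 lower and a median of 2.90. Rsad2, which encodes the antiviral enzyme viperin, was at 10.2, 8.41, 6.16 and 8.51 TPM in RM-9 mice 1 to 4 and 183, 299, 384 and 285 TPM in MC-38 mice 1 to 4 (log2 difference 5.00, SE 0.22, limma adjusted p = 2.42e-07). Isg15, a ubiquitin-like modifier, was at 45.3 to 91.1 TPM in RM-9 and 538 to 862 TPM in MC-38. Ifi44, Oasl1 and Herc6 differed by 4.28, 3.80 and 3.71. All 24 remained called under median-ratio scaling and without MC-38 mouse 1. Among the receptors and signalling genes of interferon, the counts were 9 higher and 1 lower of 13 (median 0.37), or 5 higher and 3 lower under median-ratio scaling. Irf1 was at 32.05 to 43.1 TPM in RM-9 and 185 to 258 TPM in MC-38 (log2 difference 2.71, SE 0.13, limma adjusted p = 4.41e-07), and Socs1, Irf2 and Jak1 differed by 2.01, 1.19 and 0.96.

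MHC class I presentation showed the highest median of all lists, 3.24, with 15 of 15 genes higher in MC-38. B2m, the light chain of every class I molecule, was at 1423, 1976, 1082 and 1289.8 TPM in RM-9 mice 1 to 4 and 5454, 5781, 6099 and 6234 TPM in MC-38 mice 1 to 4 (log2 difference 2.06, SE 0.16, limma adjusted p = 6.13e-06). H2-K1, a heavy chain, was at 174 to 327 TPM in RM-9 and 2864 to 3541 TPM in MC-38 (log2 difference 3.64). The peptide transporter gene Tap2, the immunoproteasome gene Psmb8, the peptidase gene Erap1 and the class I gene H2-Q4 differed by 3.65, 3.24, 2.56 and 3.32. Class II genes, which present peptides to CD4+ T cells, were mostly not called. Of 10 tested 3 were higher and 0 lower (median 0.40), against 6 called in TPM as deposited and 5 without MC-38 mouse 3 or without RM-9 mouse 4. H2-Ab1 was at 129 to 370.2 TPM in RM-9 and 131 to 352 TPM in MC-38. The 3 were H2-Oa, H2-DMb1 and the protease gene Ctss, with differences of 2.88, 1.30 and 1.16, and H2-DMa was not called (0.57). The heavy chain genes of class I are paralogs and can share reads.

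Markers of T and NK cells were higher in MC-38 as well. Summed levels were 33.02 to 60.4 TPM in RM-9 and 75.2 to 115 TPM in MC-38 for the 16 T cell genes and 40.4 to 57.02 TPM in RM-9 and 152 to 251 TPM in MC-38 for the 12 NK and cytotoxic genes, and 0 of these 28 genes were at 0 throughout. Their part in the interferon and class I results was not tested.

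Promoters of members were read from the RefSeq table of build GRCm38.p6, 250 bases before to 50 after each start. The motif GAAANNGAAA, the core of the interferon-stimulated response element, was searched on both strands (TTTCNNTTTC on the other), and matches were allowed to overlap. It was in 9 of 19 promoters of the interferon-stimulated list (17 of 24 genes matched, 47.4%), 10 of 14 of the PYHIN family (12 of 14 genes, 71.4%) and 4 of 15 of MHC class I (13 of 15 genes, 26.7%). Of all 32851 promoters, 1131 held it (3.44%), and of 14 promoters of the cGAS-STING list 0 did. The 250 bases before the start are shown for Mb21d1, whose window, like most, holds no match, and for genes with a match. Of the latter, Cxcl10 is on the list of other chemokines and not on those counted here. Matches are in capitals.
Mb21d1, chr9:78443238-78443487, minus strand: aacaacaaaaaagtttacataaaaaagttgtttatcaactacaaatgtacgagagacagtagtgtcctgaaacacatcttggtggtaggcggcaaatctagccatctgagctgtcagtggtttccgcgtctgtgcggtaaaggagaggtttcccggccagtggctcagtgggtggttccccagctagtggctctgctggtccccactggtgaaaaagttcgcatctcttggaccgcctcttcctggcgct
Isg15, chr4:156200819-156201068, minus strand: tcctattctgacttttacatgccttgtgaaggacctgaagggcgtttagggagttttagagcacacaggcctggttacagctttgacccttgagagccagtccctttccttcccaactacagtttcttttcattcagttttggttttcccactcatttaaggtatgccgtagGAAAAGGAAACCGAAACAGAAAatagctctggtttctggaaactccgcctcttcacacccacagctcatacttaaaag
Ifi205, chr1:174031756-174032005, minus strand: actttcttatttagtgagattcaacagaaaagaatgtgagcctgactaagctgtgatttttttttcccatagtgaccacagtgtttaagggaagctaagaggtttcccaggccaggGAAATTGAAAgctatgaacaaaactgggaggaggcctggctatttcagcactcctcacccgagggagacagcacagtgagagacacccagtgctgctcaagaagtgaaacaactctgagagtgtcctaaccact
B2m, chr2:122147437-122147686, plus strand: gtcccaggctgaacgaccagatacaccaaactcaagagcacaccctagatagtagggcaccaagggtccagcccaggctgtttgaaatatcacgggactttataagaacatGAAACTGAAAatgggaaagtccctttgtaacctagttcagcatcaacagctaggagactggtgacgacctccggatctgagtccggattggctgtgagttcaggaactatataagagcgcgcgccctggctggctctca
Cxcl10, chr5:92348890-92349139, minus strand: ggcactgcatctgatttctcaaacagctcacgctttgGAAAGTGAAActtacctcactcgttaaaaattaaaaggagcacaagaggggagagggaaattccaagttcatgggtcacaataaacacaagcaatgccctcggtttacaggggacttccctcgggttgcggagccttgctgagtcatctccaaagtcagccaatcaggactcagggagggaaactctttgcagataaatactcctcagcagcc
Isg15 holds 3 overlapping matches that end 57 bases before the start, and the single matches of Ifi205, B2m and Cxcl10 begin 134, 139 and 213 bases before it. A match describes letters in a window and was not tested for binding.

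**Figure D4:**
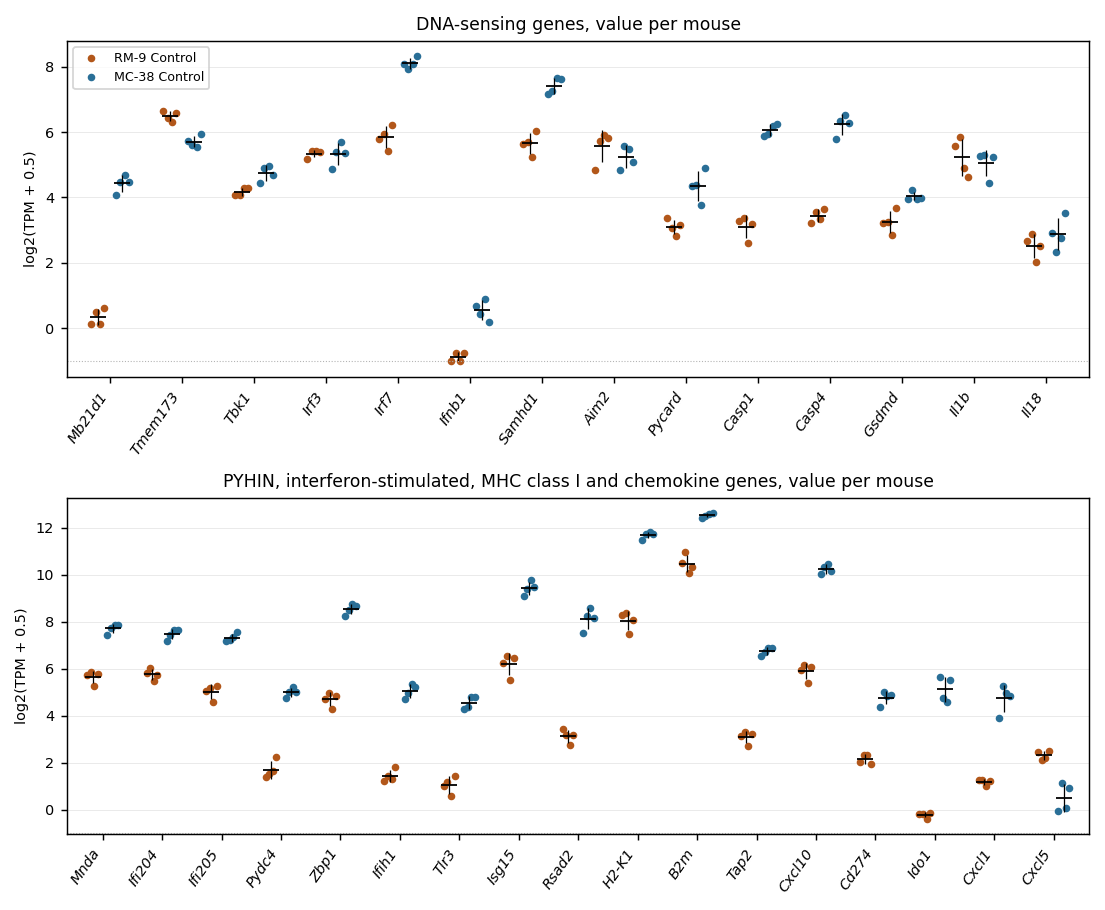
Values of DNA-sensing genes (top) and of PYHIN, interferon-stimulated, MHC class I, checkpoint and chemokine genes (bottom) as log2(TPM + 0.5) in each of 4 RM-9 Control mice (brown) and 4 MC-38 Control mice (blue), with mean and SD. Mb21d1, Casp1 and the genes from Mnda to Cxcl1 are higher in all 4 MC-38 mice, Tmem173 and Cxcl5 in all 4 RM-9 mice, and Aim2, Irf3 and Il1b overlap.

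Genes of cytotoxic lymphocytes were higher in MC-38 at baseline. Cd8a and Cd8b1, the chains of the CD8 coreceptor, were at 0.245, 0.175, 0.116 and 0.369 TPM and at 0.453, 0.504, 0.102 and 0.673 TPM in RM-9. In MC-38 they were at 4.25, 5.48, 3.81 and 4.93 TPM and at 6.89, 6.55, 4.21 and 7.69 TPM. The log2 differences were 2.82 and 2.88 (limma adjusted p = 1.86e-06 and 1.34e-05). Lck and Cd3g, of T cell receptor signalling, were higher in MC-38 by 1.71 and 1.51. Cd4 and Foxp3, singled out after their values were seen, were not called, with 1.12 to 2.57 and 0.5096 to 1.51 TPM in RM-9 and 0.998 to 2.04 and 0.277 to 0.718 TPM in MC-38. Of the 16 T cell genes, 11 were higher and 0 lower in MC-38 (median 1.01), and 10 higher and 1 lower under median-ratio scaling.

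All 12 NK and cytotoxic genes were higher in MC-38 (median 2.00). Eomes, a transcription factor of NK and CD8+ T cells, was at 0.475, 0.423, 0.487 and 0.492 TPM in RM-9 mice 1 to 4 and 8.77, 10.7, 12.6 and 12.4 TPM in MC-38 mice 1 to 4 (log2 difference 3.57, SE 0.15, limma adjusted p = 2.03e-07). Klrk1 and Klrd1, receptors of NK cells, and Gzmb, the granzyme B gene, differed by 2.99, 2.28 and 1.81. Ifng, singled out after its values were seen, was at 0 to 0.476 TPM in RM-9 and 1.43 to 3.91 TPM in MC-38. B cell genes were divided. Pax5, the B cell identity factor, was at 0 to 0.0319 TPM in RM-9 and 4.79, 9.097, 9.73 and 6.46 TPM in MC-38 (log2 difference 3.91), yet Cr2 and Blk were at 0 in all 8 libraries and Ms4a1 under the filter. Cd79a, Cd79b and Ighm differed by 2.98, 1.36 and 1.78. Of 6 tested, 5 were higher and 0 lower (median 2.38).

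Myeloid genes went both ways. Of 13 macrophage genes 6 were higher and 1 lower in MC-38 (median 0.50), or 3 higher and 2 lower under median-ratio scaling. Adgre1, which encodes F4/80, was at 12.4, 11.2, 8.85 and 16.9 TPM in RM-9 mice 1 to 4 and 40.4, 31.6, 27.9 and 44.8 TPM in MC-38 mice 1 to 4 (log2 difference 1.53, SE 0.21, limma adjusted p = 0.000226). Ms4a7 and Fcgr1 were higher by 2.28 and 1.77 and C1qc, a complement gene, by 0.78, a call lost under median-ratio scaling. Lyz2, singled out after its values were seen, was at 409 to 712 TPM in RM-9 and 281 to 646 TPM in MC-38. Of 10 monocyte genes 5 were higher and 1 lower (median 0.73). Ly6c2 was at 24.9 to 56.4 TPM in RM-9 and 139.9 to 274 TPM in MC-38 (log2 difference 2.34), and Cx3cr1 differed by 1.08.

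Neutrophil genes were low in both models. Of 16, 7 were under the filter, with Camp and Elane, which mark immature granulocytes, at 0 throughout, and 1 was higher and 3 lower in MC-38 of 9 tested (median -0.35). Ly6g, the marker used to sort mouse neutrophils, was at 4.02, 1.88, 1.61 and 1.53 TPM in RM-9 and listed at 0 in all 4 MC-38 mice. Csf3r, the receptor of the growth factor G-CSF, was at 2.91 to 4.89 TPM in RM-9 and 6.19 to 9.08 TPM in MC-38 (log2 difference 0.81), and the alarmin gene S100a9, singled out after its values were seen, at 8.96 to 13.4 and 5.45 to 15.97 TPM without a call. Retnlg was lower in MC-38 (log2 difference -2.29), as was Il1r2 (-0.54, limma adjusted p = 0.04997, or 0.0577 without MC-38 mouse 1). In dendritic cell genes 3 were higher and 3 lower of 9 (median 0.29, or -0.46 without MC-38 mouse 1). Flt3, a growth factor receptor of dendritic cells, was at 9.99, 8.87, 11.5 and 13.3 TPM in RM-9 and 0.863, 0.561, 0.363 and 0.702 TPM in MC-38 (log2 difference -3.35, SE 0.19, limma adjusted p = 1e-06). Ccl17 and Ccl22, chemokines that draw regulatory T cells, were lower in MC-38, with differences of -3.74 and -2.10, and Zbtb46 was higher by 1.17.

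Vessels and stroma were compared by their own lists. Of 13 endothelial genes 4 were higher and 1 lower in MC-38 (median 0.51), or 9 higher and 1 lower in TPM as deposited. Cdh5 and Kdr were higher by 0.91 and 0.70, Egfl7 by 0.61, and Flt1, a receptor of VEGF, was at 13.7 to 30.3 TPM in RM-9 and 3.62 to 5.62 TPM in MC-38 (log2 difference -2.03). Of 15 fibroblast genes 1 was higher and 8 lower (median -0.53). Col1a1, Col5a1 and Thy1 were lower in MC-38, with differences of -1.26, -0.79 and -0.93, and Dcn, the decorin gene, was the 1 higher, at 60.8 to 85.6 TPM in RM-9 and 209.9 to 247 TPM in MC-38. Hemoglobin genes led the platelet and erythroid list, with 4 higher and 2 lower of 7 (median 1.59). Hba-a1 and Hbb-bs differed by 1.62 and 1.59, which belong to families of paralogs that can share reads, and Gp1bb by -0.97.

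Skeletal muscle genes varied widely among mice of both models. Acta1, the muscle actin gene, was at 1738, 907, 201 and 646 TPM in RM-9 mice 1 to 4 and 5422, 8.43, 56.3 and 767 TPM in MC-38 mice 1 to 4 and was not called (limma adjusted p = 0.443). The 14 muscle genes summed to 632 to 6125 TPM in RM-9 and 35.7 to 26838 TPM in MC-38, and 0 of 14 were called. MC-38 mouse 1 had the highest sum and MC-38 mouse 2 the lowest. The part of muscle in other results was not tested beyond the fits without MC-38 mouse 1. Skin and adipose genes were sparse, with 4 of 12 tested, 2 higher and 1 lower in MC-38 (median 0.33, or -0.87 without MC-38 mouse 1). Sbsn, Krt10 and Fabp4 differed by 1.51, -1.07 and 0.89, and the call of Fabp4 was lost without that mouse (adjusted p = 0.0816). Of all genes, 64.6% were called without it, 45.0% higher in MC-38.

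Checkpoint genes, most of which restrain T cells, went both ways. Of 13 checkpoint genes 7 were higher and 3 lower in MC-38 (median 0.62), or 6 higher and 3 lower under median-ratio scaling. Cd274, the gene of PD-L1, was at 3.55, 4.54, 4.51 and 3.33 TPM in RM-9 mice 1 to 4 and 20.01, 31.3, 28.3 and 28.4 TPM in MC-38 mice 1 to 4 (log2 difference 2.61, SE 0.17, limma adjusted p = 1.98e-06). Ido1, an enzyme that degrades tryptophan, was at 0.263 to 0.409 TPM in RM-9 and 23.2 to 49.6 TPM in MC-38 (log2 difference 5.35), and Lgals9 differed by 2.18. Nt5e, which encodes the adenosine-producing enzyme CD73, was higher in RM-9, at 18.4 to 31.3 against 2.37 to 2.88 TPM (log2 difference -2.89).

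The ligands of CXCR2, which attract neutrophils, did not share a direction. Cxcl1 (ENSMUSG00000029380, chromosome 5, 90891241 to 90893115) was at 1.89, 1.91, 1.48 and 1.82 TPM in RM-9 mice 1 to 4 and 14.4, 37.2, 30.5 and 27.6 TPM in MC-38 mice 1 to 4 (log2 difference 3.54, SE 0.26, limma adjusted p = 4.59e-06). Cxcl5 was at 4.88, 3.84, 4.04 and 5.05 TPM in RM-9 and 0.447, 1.67, 0.548 and 1.39 TPM in MC-38, higher in RM-9 (log2 difference -1.79, SE 0.28, limma adjusted p = 0.000503). Ppbp, the gene of CXCL7, was at 1.06 to 5.58 TPM in RM-9 and 0.354 to 1.51 TPM in MC-38 (log2 difference -1.27, limma adjusted p = 0.0348), and this call was lost without MC-38 mouse 1 (adjusted p = 0.0554). Cxcl2 was at 0.196 to 1.64 and 1.72 to 3.77 TPM (log2 difference 1.14), a call lost under median-ratio scaling, and Cxcl3 was not called (0.67). Thus 2 of the 5 were higher and 2 lower in MC-38 (median 0.67), and 2 in all were called without MC-38 mouse 3. These genes form 1 cluster of paralogs on chromosome 5. Among 20 other chemokines and colony-stimulating factors 13 were higher and 2 lower (median 0.96). Cxcl10, a ligand of CXCR3 on T cells, was at 60.97, 70.97, 41.9 and 65.6 TPM in RM-9 mice 1 to 4 and 1039, 1285, 1404 and 1125 TPM in MC-38 mice 1 to 4 (log2 difference 4.35, SE 0.16, limma adjusted p = 1.02e-07). Cxcl11, Ccl4 and Ccl5 differed by 4.88, 2.87 and 2.84.

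Hypoxia genes did not move together, with 6 higher and 2 lower in MC-38 of 14 (median 0.12, or -0.12 under median-ratio scaling). Car9, a carbonic anhydrase, and Ero1l were higher by 2.68 and 1.43, and Slc2a1 and Egln3 were lower, with differences of -3.34 and -2.18. RM-9 mouse 4 was the lowest RM-9 mouse in each of Car9, Ero1l, Slc2a1 and Egln3.

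**Figure D5:**
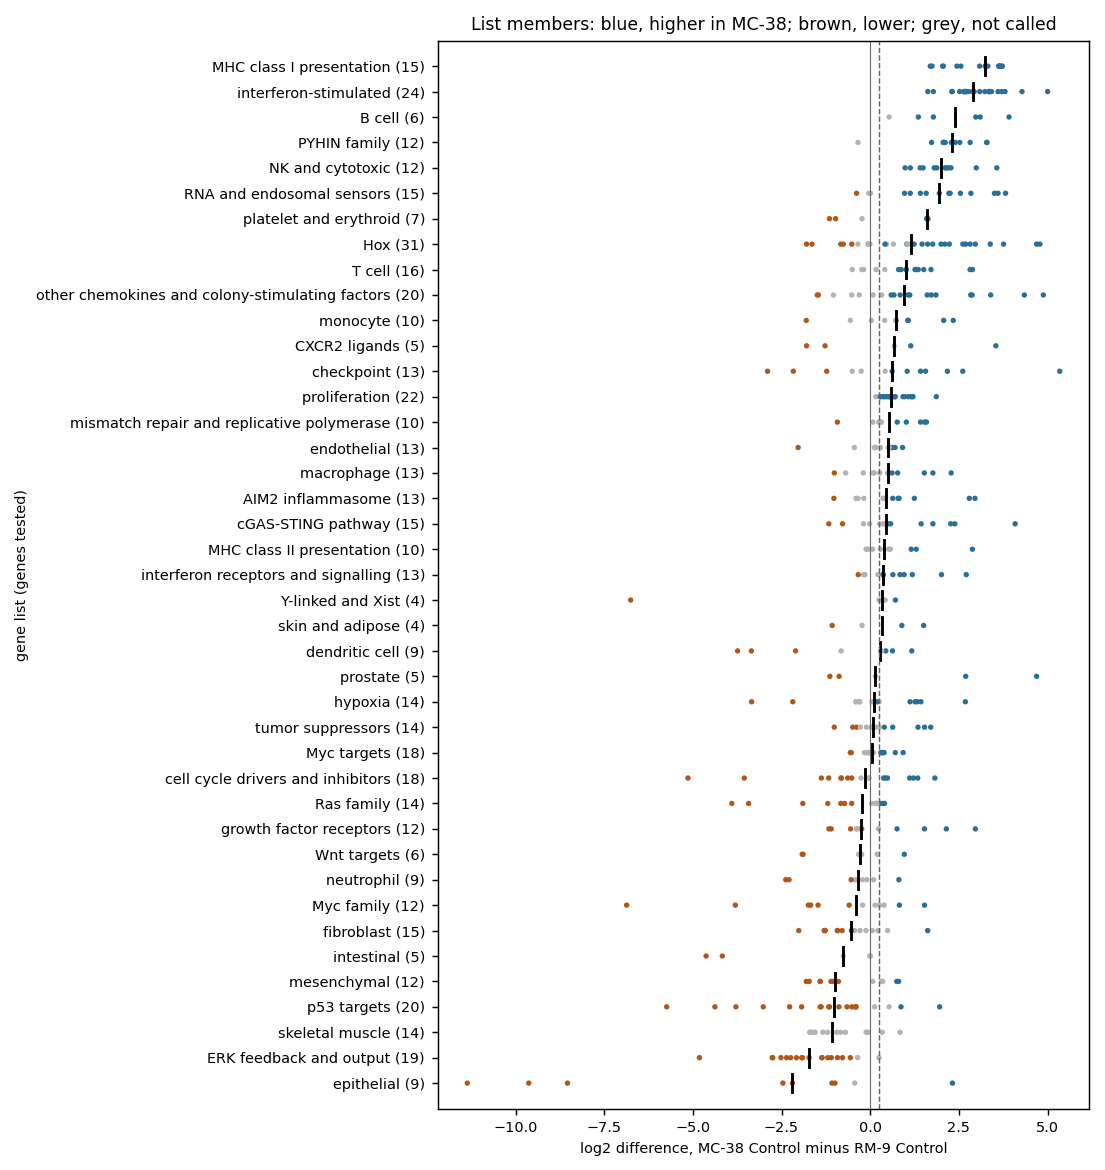
Log2 difference (MC-38 minus RM-9) of every tested member of 41 gene lists, ordered by the list's median (black tick), with the number tested in parentheses; the dashed line is the median of all genes, 0.25. MHC class I presentation and interferon-stimulated genes lie wholly to the right, with medians of 3.24 and 2.90, and epithelial and ERK output genes mostly to the left, with medians of -2.19 and -1.72.

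The largest differences in the table included genes of the germline. By rule, the 10 largest in each direction were taken among called genes without overlap and with at least 10 TPM in the higher group. On the MC-38 side, 5 of the 10 lay on the X chromosome, against 664 of 16146 genes tested (4.11%) and 151 of the 3682 candidates higher in MC-38 from which they were taken (4.10%). Fmr1nb, a gene of the testis and of tumors, was listed at 0 in RM-9 and at 119, 137, 151 and 171 TPM in MC-38. Tex13, another testis gene, was at 0 in RM-9 and 47.7 to 116 TPM in MC-38, and Cyct, the testis form of cytochrome c, at 0 and 28.3 to 42.1 TPM. Fam159b was listed at 0 in RM-9 and at 258 to 467 TPM in MC-38, the largest difference toward MC-38, and Xlr3c, Pnma5 and Gm773 on the X chromosome, Slc9b1, Gm7030 and AC099934.2 were the others, at 40.1 to 56.8, 23.2 to 39.9, 72.7 to 104, 29.2 to 47.3, 82.8 to 106 and 26.6 to 42.5 TPM in MC-38. Over the whole X chromosome 11.4% of tested genes were at least 4-fold higher in MC-38, against 5.44% of all, and no other chromosome passed 6.70%. The medians per chromosome ran from -0.02 on chromosome 15 to 0.62 on chromosome 8.

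On the RM-9 side the 10 included Krt8, Krt18, Krt19 and Mycn. Crabp1, a binding protein of retinoic acid, was at 72.9, 87.8, 133 and 135 TPM in RM-9 and listed at 0 in MC-38. Wnt7b, a Wnt ligand, was at 90.9 to 103 TPM in RM-9 and 0.0408 to 0.118 TPM in MC-38, and Lgals7, a galectin of stratified epithelium, at 620.3 to 972 and 0 to 3.15 TPM. Lmo1, Nptx1 and Ociad2 were at 106 to 125, 56.4 to 83.6 and 77.8 to 106 TPM in RM-9 and 0 to 0.719, 0.0248 to 0.0521 and 0 to 1.79 TPM in MC-38. Of these 10, 0 lay on the X chromosome.

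The differences were also read over every library, irradiated ones included, as a description without a test. Of the genes tested, 54.1% did not overlap between the 4 and 4 control mice, and 32.1% did not overlap between all 15 RM-9 and all 16 MC-38 libraries. Over these libraries Mb21d1 ranged over 0.3403 to 1.31 TPM in RM-9 and 16.4 to 34.8 TPM in MC-38, and Krt8 over 1081 to 2029.6 and 0 to 0.3396 TPM. Hras ranged over 619 to 1511 and 56.5 to 87.7 TPM, Mdm2 over 889 to 3264 and 19.8 to 51.2 TPM and Cdkn2a over 265 to 388 and 7.46 to 17.03 TPM. All 15 class I genes, 23 of 24 interferon-stimulated genes and 11 of 12 PYHIN genes stayed apart over the 31 libraries, and 0 of 13 macrophage genes did. Tmem173 overlapped, with 65.6 to 98.7 TPM in RM-9 and 45.03 to 100.1 TPM in MC-38.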

How the data were processed

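Per the labels, poly(A) mRNA of whole tumors was sequenced as stranded single-end libraries. The submitters' processing notes name bcl2fastq 2.17 and GRCm39, whereas the coordinates deposited are those of GRCm38, since 45137 of 46072 gene identifiers were shared with a GRCm38 annotation, 100% on the same chromosome and 91.1% with the same start or end. The aligner and quantifier are not given in the sources used here. The authors deposited TPM, FPKM and coverage per gene for each library, with no counts. Coverage and FPKM served here only to estimate the depth.

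TPM were summed per gene identifier and rescaled to a common total without the rows of the mitochondrial genome. Genes with a mean of at least 0.5 TPM over the 8 libraries were fitted on log2(TPM + 0.5) with limma 3.58.1 (trended eBayes, two-sided, Benjamini-Hochberg adjustment) in R 4.3.3, and a difference on this scale understates the change of genes with low values. Other pseudocounts, scalings, filters and models were tried, and each library was left out in turn. A list is described by its counts and median, with no test over it. All members of the cGAS-STING, AIM2, PYHIN, Ras, Myc, CXCR2 ligand and Y-linked and Xist lists were open to naming, together with the 4 tested genes of smallest p in each other list, its genes under 0.5 TPM and the 10 largest differences in each direction. Any other gene was chosen after its values were seen. The comparison and the 41 lists were chosen with earlier results of these data known. Each library came from 1 mouse. Some genes are not reported here.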

Additional observations from a re-analysis of the deposited data

Results flagged for a closer look

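In 40 of 480 sets of 4 values checked (8.33%), 1 mouse lay farther from the other 3 than Dixon's 95% critical value allows. The nominal rate of about 1 in 20 holds for independent sets of normally distributed values. These sets were TPM of genes measured in the same mice. Where 3 mice share the same value, as for Ccl17 in MC-38, any other value in the remaining mouse is flagged. The 8.33% therefore cannot be compared with that rate, and the flags are a description only. MC-38 mouse 1 accounted for 10 of them and RM-9 mouse 3 for 8.

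MC-38 mouse 1 was highest in Acta1 (5422 TPM against at most 767), Ccl17 (0.626 TPM) and Mycn (0.0797 TPM), the last 2 at 0 in the other 3 mice. It was lowest in Brca2 (7.21 TPM), Gm773 (72.7 TPM), Gsta2 (6.52 TPM), Gzmb (53.3 TPM), Irf1 (185 TPM), Klrd1 (13.5 TPM) and Krt10 (0.504 TPM). Its Gzmb, Irf1 and Klrd1 values were still above those of all RM-9 mice. MC-38 mouse 2 was highest in Cdh1 (1.17 TPM), Gsdmd (18.3 TPM) and Krt20 (0.475 TPM). MC-38 mouse 3 was lowest in Cd3g (6.87 TPM), Il1b (21.4 TPM) and Kdm5d (0.325 TPM) and highest in Krt19 (0.200 TPM) and Xist (1.21 TPM). MC-38 mouse 4 was highest in Csf3r (9.08 TPM), Egfl7 (57.3 TPM), Klrk1 (23.4 TPM) and Mlh3 (2.56 TPM).

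RM-9 mouse 3 was highest in Mras (23.2 TPM), Mycl (12.7 TPM), Spred1 (74.8 TPM), Spry4 (37.5 TPM) and Hoxb13 (0.0988 TPM). It was lowest in the macrophage and antigen-processing genes C1qc (155 TPM) and Ctss (203 TPM) and in Odc1 (212 TPM). RM-9 mouse 4 was highest in Apcdd1 (40.6 TPM), Gm7030 (10.6 TPM), Gm773 (1.00 TPM), Hbb-bs (30.8 TPM) and Ms4a1 (0.0439 TPM) and lowest in Ier3 (83.5 TPM). RM-9 mouse 1 was highest in Fabp4 (44.2 TPM) and Ly6g (4.02 TPM) and lowest in Ociad2 (77.8 TPM). RM-9 mouse 2 was lowest in Pms2 (4.36 TPM).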

How the results depend on the processing

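Of the genes called, 0 changed sign and were called in the other direction under any alternative. Requiring a difference beyond 2-fold with limma's treat left 2040 called genes, 1314 higher and 726 lower in MC-38, and a mean of at least 5 TPM left 824 genes with at least a 4-fold difference. With 1 mouse left out at a time, 8725 to 10399 genes were called, 1333 to 1488 of them at least 4-fold. Of the list genes 349 to 373 were called, against 368 with all mice. In the cGAS-STING and AIM2 lists together 15 to 18 were called, against 16 with all mice. The mitochondrial difference then ranged from -21.02 to -16.1 percentage points, with an exact permutation p of 0.0571 without any 1 RM-9 mouse, the smallest that 3 against 4 allow. Mouse numbers 1 to 4 name different animals in the 2 models and were not used as pairs. Same-numbered deviations correlated at 0.401, -0.161, 0.418 and -0.00185, and different-numbered ones at -0.472 to 0.449, a range that holds the same-numbered values. With so few mice these correlations cannot decide whether the numbers pair. A fit with the replicate block called 9891 genes, 1369 at least 4-fold. The count of called genes moved by more than 1.5 times under at least 1 alternative in 13 of 41 lists. Of 4064 values of 242 named genes under the alternatives, 58 lost the call, 50 gained it and 31 changed sign. In TPM as deposited the sign changed for Aim2 (0.0825), Cd4 (0.114), Eef1a1 (0.0813), H2-Ab1 (0.329), Il1b (0.243), Irf3 (0.408), Lyz2 (0.236), Max (0.215), Rela (0.240), S100a9 (0.305), Spred2 (0.0726) and Trp53 (0.324), of which only Eef1a1 had been called. Under median-ratio scaling it changed for Mga (-0.0961), Nras (-0.0921), Ralb (-0.0538), Rap1a (-0.205) and Rap2c (-0.0902). With 1 mouse left out at a time, 8 genes that were not called had differences on both sides of 0, from -0.420 to 0.180 for H2-Ab1, -0.378 to 0.0268 for Il1b, -0.136 to 0.137 for Irf3, -0.358 to 0.0414 for Lyz2, -0.0172 to 0.307 for Mga, -0.00307 to 0.0652 for Rap1a, -0.332 to 0.158 for S100a9 and -0.100 to 1.07 for Trex1. The cause of these changes was not tested. With no counts deposited, values near 0 TPM carry no interval.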
